A study of Mus musculus with 16 samples.

Results

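The C-type lectin receptors of macrophages described here are the products of 8 genes: Clec4n, Clec7a, Clec10a, Mgl2, Clec4a2, Clec4d, Clec4e and Clec5a. They were taken by symbol from 12394 genes measured on an Affymetrix 3' expression array, and 11 probe sets carried exactly 1 of these symbols. Clec4n, Clec4a2 and Clec4e had 2 probe sets each and the other genes 1. For each gene the brighter probe set, by its mean across the 16 arrays, comes first. Another probe set, annotated to both Clec4b1 and Clec4a2, was not used.

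All 16 mice were of the genotype Nestin-Tv-a;Ink4a/Arf-/-, in which cells with an active Nestin promoter can be infected by an avian retrovirus and the tumour suppressor locus Ink4a/Arf is absent. Gliomas were started by intracranial injection of DF-1:RCAS-PDGF-B-HA cells, which release a virus carrying the growth factor PDGF-B, so the tumours share 1 driver, in mice on a mixed background. The groups were 8 mice given Vehicle, which is captisol, and 8 given BLZ945, an inhibitor of the kinase of the CSF-1 receptor, by gavage for 7 days at a dose labelled 200 mg without a body weight. Cells of the excised tumours that stained for CD11b and not for Gr1 were taken as tumour-associated macrophages, and each array holds the RNA of 1 mouse. Vehicle had 4 mice of 11.29 weeks, 2 of 11.43 and 2 of 12.29, while BLZ945 had 4 of 11.29 and 4 of 13.14 weeks. Females numbered 4 in Vehicle and 5 in BLZ945. The labelled initial tumour volume, given without a unit, ran from 11.9 to 27.3 in 6 Vehicle mice and from 41.3 to 132.3 in BLZ945, so volume and agent cannot be told apart across the groups.

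C-type lectin receptors bind sugars or lipids of microbes and of damaged or altered cells. Dectin-1 (Clec7a), Dectin-2 (Clec4n), Mincle (Clec4e) and MCL (Clec4d) are activating receptors that signal through the kinase Syk and the adaptor Card9 to NF-kappaB, Clec7a by a motif in its own tail and the others through the adaptor chain FcR gamma (Fcer1g). Clec5a pairs with the adaptor DAP12 (Tyrobp). DCIR (Clec4a2) instead carries an inhibitory motif that recruits phosphatases such as SHP-1 (Ptpn6), and the galactose-type lectins MGL1 (Clec10a) and MGL2 (Mgl2) take up glycoproteins and are widely used as markers of alternatively activated macrophages and of some dendritic cells.

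Clec4a2, Clec4n, Clec4d and Clec4e lie in a cluster of related genes on mouse chromosome 6, with Clec4d directly between Clec4n and Clec4e in the RefSeq gene order of GRCm38.p6. Clec7a and Clec5a lie elsewhere on that chromosome, and Mgl2 and Clec10a are neighbours on chromosome 11. RefSeq promoter entries (GRCm38.p6, 250 bases before to 50 after the gene start) were found for 6 of the 8 genes, all but Clec4n and Clec10a. Printed here are those of the cluster neighbours Clec4e and Clec4d and of Clec7a, whose differences between BLZ945 and Vehicle are set side by side further on. Written 5' to 3' along the gene, they show in capitals the core GAGGAA of the binding site of PU.1, the transcription factor of the myeloid lineage (TTCCTC on the other strand), and the STAT6 motif, TTC followed by GAA after 4 free bases.
Clec4e (chr6:123289822-123290121, minus strand): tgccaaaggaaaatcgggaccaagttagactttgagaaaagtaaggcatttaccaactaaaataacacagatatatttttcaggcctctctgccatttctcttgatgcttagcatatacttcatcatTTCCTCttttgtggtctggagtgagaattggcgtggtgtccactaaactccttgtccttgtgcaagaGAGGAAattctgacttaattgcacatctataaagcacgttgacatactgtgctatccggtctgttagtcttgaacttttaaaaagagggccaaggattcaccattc
Clec4d (chr6:123261857-123262156, plus strand): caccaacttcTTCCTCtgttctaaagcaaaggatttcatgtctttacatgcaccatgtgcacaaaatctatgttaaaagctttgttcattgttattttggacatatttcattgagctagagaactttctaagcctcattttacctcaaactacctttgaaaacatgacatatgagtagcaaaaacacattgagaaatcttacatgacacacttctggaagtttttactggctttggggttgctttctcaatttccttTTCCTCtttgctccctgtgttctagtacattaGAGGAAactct
Clec7a (chr6:129472730-129473029, minus strand): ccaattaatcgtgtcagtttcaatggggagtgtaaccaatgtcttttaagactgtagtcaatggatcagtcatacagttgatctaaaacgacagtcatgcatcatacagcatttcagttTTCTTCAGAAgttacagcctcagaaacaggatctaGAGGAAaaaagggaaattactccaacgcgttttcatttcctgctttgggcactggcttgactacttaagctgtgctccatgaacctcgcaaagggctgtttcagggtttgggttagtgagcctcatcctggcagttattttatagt
GAGGAA was found on either strand in 5 of the 6 promoters, against 28.3% of 32851 promoters of the same length. Clec4d held it 3 times, Clec4e and Clec5a 2 times each, and Clec4a2 had no match. The STAT6 motif was found in Clec7a and Clec5a, 2 of 6, against 6.95% of all. The motif TGANTCA, bound by AP-1 factors, was in 1 of 6, Clec4a2, against 7.81% of all, and no matches of these motifs overlapped. These matches describe the letters of the windows and are not evidence of binding.

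The comparison of BLZ945 with Vehicle addresses how macrophages that remain in a glioma express these receptors once CSF-1 signalling is blocked. Clec4n fell 5.19-fold and Clec4e 2.07-fold in BLZ945, Clec7a rose 1.78-fold, and Clec10a, Mgl2, Clec4a2, Clec4d and Clec5a did not pass the test. The changed genes are thus 3 of 8, 2 lower and 1 higher, where 7.94% of all genes changed, 5.34% lower and 2.60% higher. A gene is called changed here at an adjusted p under 0.05 in limma, adjusted over all genes by Benjamini-Hochberg, and all levels and differences are on the log2 scale of the deposited values, where 1 unit is a doubling. The median difference of the 8 genes was -0.53, with 7 below 0 and 1 above, and that of all genes was 0.07. The 8 genes were picked with results of these data known, so neither figure is independent evidence.

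**Figure D1:**
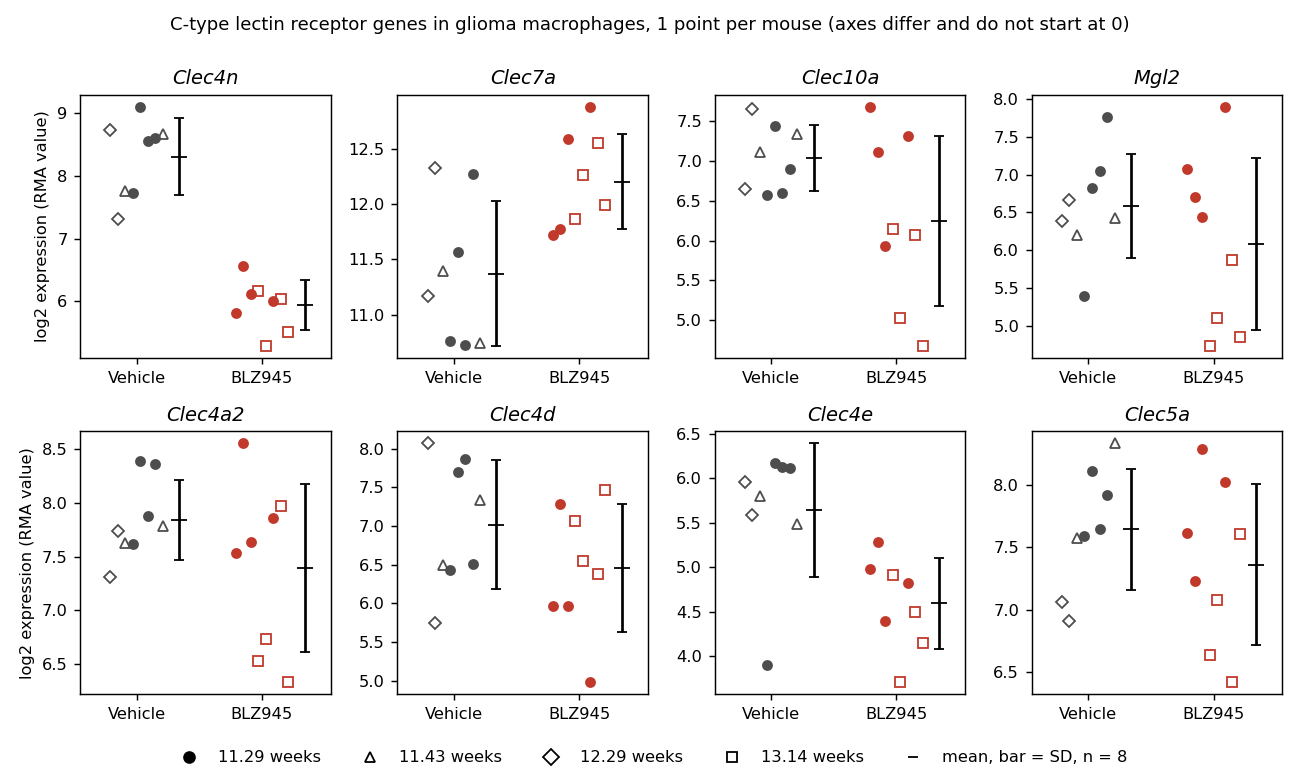
Log2 expression (y axes, each with its own range) of the first probe set of the 8 genes in the 8 Vehicle and 8 BLZ945 mice, 1 point per mouse, with the marker giving the age and the bar the mean ± SD. Every BLZ945 mouse lies below every Vehicle mouse for Clec4n, and the groups did not overlap for 1.36% of all genes. For Mgl2 the 4 BLZ945 mice of 13.14 weeks lie below the 4 of 11.29 weeks. These ages did not overlap for 9.03% of all genes, and the age difference of Mgl2 did not pass (limma adjusted p = 0.103).

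Clec4n encodes Dectin-2, a receptor for high-mannose sugars. Its level ran from 7.32 to 9.10 in Vehicle with a median of 8.58, and from 5.29 to 6.56 in BLZ945 with a median of 6.02. The groups did not overlap, which was so for 1 of the 8 genes and for 1.36% of all genes. The mean went from 8.31 ± 0.62 to 5.94 ± 0.40 (SD, n = 8 each), a difference of -2.38 (SE 0.24, 95% confidence interval -2.87 to -1.88, limma adjusted p = 1.54e-05). The second probe set ran from 6.34 to 8.12 in Vehicle and from 3.68 to 4.88 in BLZ945, again without overlap. It differed by -3.04 (SE 0.25, adjusted p = 4.17e-06 in limma over 20393 probe sets, of which 6.81% passed). The first probe set bears the suffix _s_at, which Affymetrix gives to probes that can match transcripts of more than 1 gene, and the second does not. Across the 8 Vehicle mice the 2 probe sets correlated with r = 0.97, and across the BLZ945 mice, where the second reached 3.68 on arrays whose lowest 5% of values ended between 2.65 and 2.98, with r = 0.38.

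The fall of Clec4n was as large in the mice of 1 age. At 11.29 weeks, the only age in both groups, Clec4n averaged 8.50 ± 0.57 in Vehicle and 6.12 ± 0.32 in BLZ945 (SD, n = 4 each), a difference of -2.38 (SE 0.28, limma adjusted p = 0.0103). Of the 8 genes 1 passed there, Clec4n, where 0.718% of all genes passed. Its groups were again apart, as were those of 9.68% of all genes in these 8 mice. Clec4n passed without any 1 mouse (16 of 16 fits, -2.52 to -2.26). In the 7 male mice the difference was -1.99 with adjusted p = 0.152, in a fit where 2 genes of 12394 passed.

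Clec4e encodes Mincle, a receptor for glycolipids of mycobacteria and for a nuclear protein released by dying cells. In Vehicle it ran from 3.90 to 6.18 with a median of 5.88, and in BLZ945 from 3.71 to 5.28 with a median of 4.66. Vehicle 4, at 3.90, was the only Vehicle mouse inside the BLZ945 range, and the other 7 Vehicle mice, from 5.49 upward, lay above every BLZ945 mouse. The mean fell from 5.64 ± 0.75 to 4.59 ± 0.51 (SD, n = 8 each), by 1.05 on the log2 scale (SE 0.29, limma adjusted p = 0.0294). The second probe set differed by -0.45 (SE 0.11, adjusted p = 0.0146 in limma over all probe sets), from 4.43 ± 0.21 to 3.98 ± 0.14 (n = 8 each), low on a scale where differences are compressed. The first and second probe sets correlated with r = 0.82 across the 8 Vehicle mice and with r = -0.46 across the 8 BLZ945 mice. In BLZ945 the second ran from 3.81 to 4.21, so the probe sets did not rank the treated mice alike. The first probe set missed the threshold when Vehicle 1, 5, 6 or 7, or BLZ945 3, 5, 7 or 8, was left out in turn (adjusted p from 0.0503 to 0.0626), and at 11.29 weeks the difference was -0.71 (SE 0.47, adjusted p = 0.502).

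Clec4d encodes MCL, which forms a complex with Mincle and raises its surface level. It ran from 5.75 to 8.07 in Vehicle with a median of 6.92, and from 4.98 to 7.47 in BLZ945 with a median of 6.46. The groups overlapped widely, with 7 of 8 BLZ945 mice inside the Vehicle range. Its mean of 7.02 ± 0.83 in Vehicle and 6.46 ± 0.82 in BLZ945 (SD, n = 8 each) gave a difference of -0.56 (SE 0.37, 95% confidence interval -1.33 to 0.20, limma adjusted p = 0.371). At 11.29 weeks the difference was -1.08 (SE 0.49, adjusted p = 0.331). Its only probe set also bears the suffix for shared probes.

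The neighbours Clec4n and Clec4d thus moved by different amounts in the same mice. Within each mouse the log2 value of Clec4n minus that of Clec4d changed by -1.81 from Vehicle to BLZ945 (exact two-sided permutation p = 0.000466 over 12870 labellings, 0.0014 adjusted over the 3 pairs of neighbouring genes). The same comparison gave 0.49 for Clec4d against Clec4e (exact p = 0.308, adjusted 0.415) and -0.29 for Clec10a against Mgl2 (exact p = 0.415, adjusted 0.415). These 3 tests were added after the values had been seen. Clec4n minus Clec4d ran from 0.67 to 2.10 in Vehicle and from -1.96 to 1.02 in BLZ945, so the groups overlapped. At 11.29 weeks Clec4n differed by -2.38 and Clec4d by -1.08, and the pair was not tested at that age.

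Clec7a, which encodes the beta-glucan receptor Dectin-1, was the member that rose. It ran from 10.72 to 12.33 in Vehicle with a median of 11.29, and from 11.72 to 12.87 in BLZ945 with a median of 12.13. Vehicle 2 and Vehicle 7, at 12.33 and 12.27, lay inside the BLZ945 range, and 3 BLZ945 mice lay above every Vehicle mouse. From 11.37 ± 0.65 to 12.20 ± 0.43 (SD, n = 8 each), the mean rose by 0.83 (SE 0.25, 95% confidence interval 0.31 to 1.35, limma adjusted p = 0.0474). By its mean this probe set stood above 98.6% of all probe sets on the array, and its highest value lay below the lowest array maximum of 13.87. The call was close to the threshold: Clec7a passed in 4 of 16 fits that each left out 1 mouse, those without Vehicle 2, Vehicle 7, BLZ945 1 and BLZ945 2, and in the other 12 its adjusted p was 0.0507 to 0.0992. At 11.29 weeks the difference was 0.91 (SE 0.38, adjusted p = 0.307).

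Clec10a and Mgl2, the galactose-type lectins, did not pass. Clec10a ran from 6.57 to 7.65 in Vehicle with a median of 7.01, and from 4.67 to 7.68 in BLZ945 with a median of 6.11, so that 5 BLZ945 mice were below every Vehicle mouse and 1 was above all of them. It averaged 7.04 ± 0.42 and 6.24 ± 1.07 (SD, n = 8 each), a difference of -0.79 (SE 0.36, 95% confidence interval -1.55 to -0.04, limma adjusted p = 0.196). Mgl2 ran from 5.39 to 7.76 in Vehicle with a median of 6.54, and from 4.73 to 7.89 in BLZ945 with a median of 6.15. The lowest and the highest Mgl2 values of all 16 mice were both from BLZ945. The difference of Mgl2 was -0.50 (SE 0.41, adjusted p = 0.474). At 11.29 weeks both signs turned, to 0.13 for Clec10a (SE 0.35, adjusted p = 0.874) and 0.27 for Mgl2 (SE 0.47, adjusted p = 0.791).

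Within BLZ945 the values of these lectins are given by labelled age, a difference that did not pass for either. Mgl2 was 7.08, 6.70, 6.44 and 7.89 in BLZ945 1, 2, 3 and 6, which were 11.29 weeks old, and 4.73, 5.11, 5.87 and 4.85 in BLZ945 4, 5, 7 and 8, which were 13.14 weeks old. The ages did not overlap for Mgl2, 1 of the 8 genes, as for 9.03% of all genes, and they overlapped for Clec10a. The older minus the younger mice gave -1.89 for Mgl2 (SE 0.33, limma adjusted p = 0.103) and -1.53 for Clec10a (SE 0.41, adjusted p = 0.158), in a fit of 4 mice against 4 where 0.0403% of all genes passed and 0 of the 8 genes did. At an unadjusted p under 0.05 there were 4 of 8, against 2312 of 12394 genes, with Clec4a2 (-1.01) and Clec5a (-0.85) beside the galactose-type lectins. Clec4d ran the other way (0.82, adjusted p = 0.309) and Clec7a differed by -0.07 (adjusted p = 0.901). No Vehicle mouse was 13.14 weeks old, so whether the difference between BLZ945 and Vehicle varies with age cannot be tested.

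**Figure D2:**
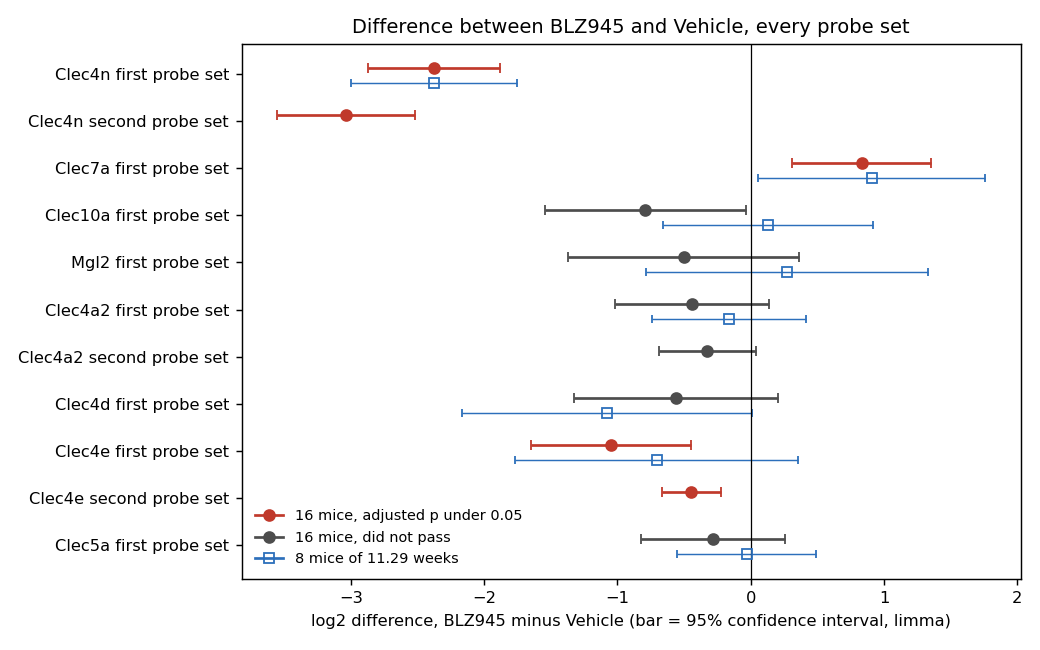
Log2 difference between BLZ945 and Vehicle (x axis) for the 11 probe sets, with 95% confidence intervals from limma, over 16 mice (circles) and, for the first probe set of each gene, over the 8 mice of 11.29 weeks (squares). Clec4n keeps its difference of -2.38 in the mice of 1 age, whereas Clec10a and Mgl2 lie on the other side of 0.

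Clec4a2 encodes the inhibitory receptor DCIR. It ran from 7.31 to 8.39 in Vehicle with a median of 7.76, and from 6.33 to 8.56 in BLZ945 with a median of 7.59. The 3 lowest BLZ945 mice lay below every Vehicle mouse and were all females of 13.14 weeks. The male of that age, BLZ945 7, was at 7.97, inside the Vehicle range. The difference between BLZ945 and Vehicle was -0.44 (SE 0.28, limma adjusted p = 0.351), and that of the second probe set -0.33 (SE 0.17, adjusted p = 0.287 over all probe sets). The 2 probe sets varied together over the mice, with r = 0.80 in Vehicle and 0.75 in BLZ945 (n = 8 each, given as a description of 1 gene). Clec5a, the partner of DAP12, ran from 6.91 to 8.33 in Vehicle with a median of 7.62, and from 6.42 to 8.29 in BLZ945 with a median of 7.42. Its groups overlapped almost wholly, and its difference of -0.28 (SE 0.26, 95% confidence interval -0.82 to 0.26, adjusted p = 0.521) did not pass.

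Sex and tumour volume gave no call among the 8 genes. Between females and males, with the agent as covariate, 0 of 8 passed in limma, with either its default or its trended and robust variance, where 0.0323% of all genes passed. At an unadjusted p under 0.05 there were 2 of 8, against 1214 of 12394 genes. These were Clec4a2, with a female minus male difference of -0.77 (SE 0.22, adjusted p = 0.484), and Clec7a, with -0.53 (SE 0.23, adjusted p = 0.504). Clec4a2 averaged 7.26 ± 0.58 in 9 females and 8.07 ± 0.36 in 7 males. The agent difference was not shown to depend on sex, with 0 of 8 genes past limma's interaction test, 0 at an unadjusted p under 0.05, and 0.00% of all genes (414 at an unadjusted p under 0.05). The mean of Clec4n went from 8.43 ± 0.45 (n = 4) to 5.78 ± 0.38 (n = 5) in females and from 8.19 ± 0.81 (n = 4) to 6.20 ± 0.31 (n = 3) in males. For the slope on log2 volume within BLZ945, limma passed 0 of 8 genes, 0 at an unadjusted p under 0.05, and 0.00% of all genes (846 unadjusted). The slopes with the largest size were those of Clec10a, -1.02 per doubling (SE 0.51, adjusted p = 0.711), and Clec4d, 0.73 (SE 0.41, adjusted p = 0.725).

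The receptors were not shown to vary as 1 block from mouse to mouse, which 8 mice per group can neither establish nor exclude. Over 28 pairs in each group, 56 relations in all, 0 passed at an adjusted exact permutation p under 0.05, and 7 had an unadjusted p of r under 0.05, 2 in Vehicle and 5 in BLZ945. No pair was among them in both groups. Clec4n and Clec4d gave r = 0.84 and rho = 0.81 in Vehicle (n = 8, exact permutation p = 0.0118 and 0.0218, adjusted 0.164 and 0.406), and r = 0.63 without the 2 mice farthest from the median of Clec4n. In BLZ945 the same pair gave r = 0.01. Clec10a and Mgl2 gave r = 0.83 and rho = 0.71 in BLZ945 (n = 8, exact permutation p = 0.013 and 0.0576, adjusted 0.164 and 0.517), r = 0.77 without 2 mice, and r = 0.17 in Vehicle. Clec10a with Clec4e in BLZ945 had the smallest p, with r = 0.85 and rho = 0.86 (n = 8, exact permutation p = 0.0088 and 0.0107, adjusted 0.164 and 0.406) and r = 0.87 without 2 mice. Mgl2 and Clec4d ran in opposite directions in BLZ945 (r = -0.75, rho = -0.67, n = 8, exact permutation p = 0.0296 and 0.0831, adjusted 0.256 and 0.517), with r = -0.49 without 2 mice. Whether these correlations differ between the groups was not tested.

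**Figure D3:**
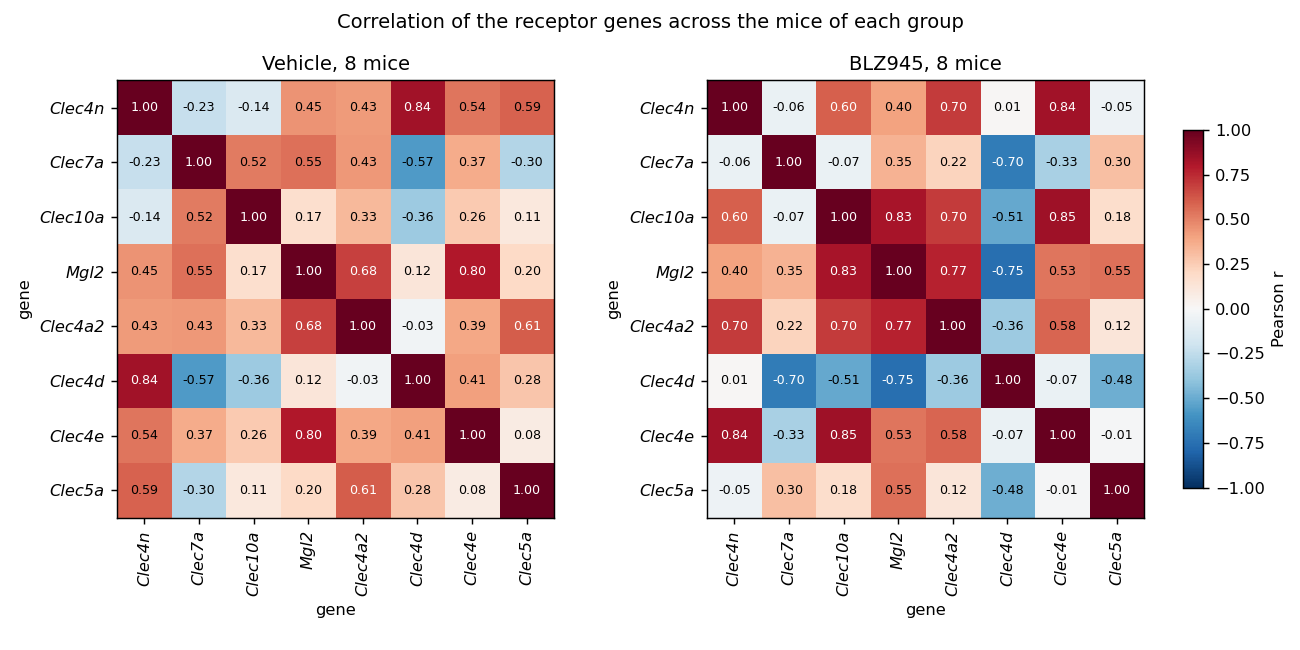
Pearson r between the first probe sets of the 8 genes (both axes) across the 8 Vehicle mice (left) and the 8 BLZ945 mice (right), with the value printed in each square. Clec4n and Clec4d have r = 0.84 in Vehicle and 0.01 in BLZ945, and Clec10a and Mgl2 have 0.17 and 0.83.

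For each receptor the most similar genes were sought as those with the highest value of the lower of the r within the 8 Vehicle and within the 8 BLZ945 mice, over 12394 genes. Since they are the highest of so many, they are given without a p. Mgl2 was closest to Ahr, the aryl hydrocarbon receptor (lower r 0.93), Cytip (0.92) and the phosphodiesterase gene Pde4b (0.90). Clec10a was closest to Lst1 (0.88), the chemokine gene Ccl22 (0.83) and Tnfrsf18 (0.83), and Clec7a to Shisa5 (0.88), the Fc receptor gene Fcgr4 (0.85) and Ddhd1 (0.84). Clec4a2 was closest to Zbtb44 (0.92), Txnip (0.90) and Zfp622 (0.89), and Clec5a to Taf1b (0.91), Rp2 (0.87) and Yme1l1 (0.87). Clec4d was closest to the creatine transporter gene Slc6a8 (0.86), Cd5l, which encodes a secreted macrophage protein (0.84), and Akap12 (0.84). Clec4n had Chdh (0.82), Rabgap1l (0.77) and Pxn (0.76), and Clec4e had the coagulation factor gene F5 (0.79), S100a10 (0.78) and Mfsd6 (0.77). No receptor appeared among the genes closest to another receptor.

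Among 25 other measured C-type lectin and lectin-like receptor genes of 35 listed, 3 fell, 2 rose and 20 did not pass, with a median difference of 0.25. Over all genes the share changed was 7.94%. Cd93, a receptor of endothelial and myeloid cells, fell from 7.25 ± 0.50 to 4.71 ± 0.60 (SD, n = 8 each), by 2.54 (limma adjusted p = 1.54e-05), without overlap. Mrc1, the mannose receptor, fell by 3.08 (adjusted p = 0.000171), also without overlap, and Cd302 fell by 0.81 (adjusted p = 0.0158). The groups did not overlap for 2 of the 25 genes and for 1.36% of all genes. Cd72, an inhibitory lectin-like receptor best known in B cells, rose by 0.71 (adjusted p = 0.0372), and Asgr2, a chain of the asialoglycoprotein receptor and the neighbour of Mgl2, rose by 0.46 (adjusted p = 0.0282) from 2.98 ± 0.24 at the bottom of the scale. Other neighbours did not pass. Olr1, next to Clec7a, differed by 0.80 (SE 0.57, adjusted p = 0.412), and Clec4b1, next to Clec4a2, by 0.10 (SE 0.14, adjusted p = 0.668) at 3.63 ± 0.35 in Vehicle.

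Genes of the adaptors and first signalling steps did not pass. Of 15 measured among 21 listed, 0 passed in limma, where 7.94% of all genes did, so a list of this size could hold none by its size alone. An unadjusted p under 0.05 was found for 2, and the median difference was -0.07. The share of all genes at that unadjusted p is not given, so this count cannot be judged against it. The 2 with an unadjusted p under 0.05 were Bcl10, which acts with Card9 (0.49, adjusted p = 0.0842), and Pik3cg (-0.41, adjusted p = 0.173). Fcer1g, the chain on which Dectin-2 and Mincle depend, was 12.52 ± 0.22 in Vehicle and 12.45 ± 0.23 in BLZ945 (n = 8 each, difference -0.07, adjusted p = 0.739). Tyrobp differed by 0.15 (adjusted p = 0.332), Syk by -0.28 (adjusted p = 0.365) and Ptpn6 by 0.01 (adjusted p = 0.979). Card9 was among the 6 listed genes without a probe set of a single symbol.

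Of 15 measured genes of transcription factors and the inflammasome, 2 rose, 1 fell and 12 did not pass (median 0.18), where 7.94% of all genes changed. Rela rose by 0.48 (adjusted p = 0.00464) and Relb by 0.80 (adjusted p = 0.00301), both subunits of NF-kappaB, and the protease gene Casp8 fell by 0.59 (adjusted p = 0.00694). Rela, from 8.71 to 9.17 in Vehicle and from 9.21 to 9.69 in BLZ945, did not overlap. It was 1 of the 15 genes to do so, where 1.36% of all genes did not overlap. Of 14 cytokine and chemokine genes that these receptors can induce, 2 rose, 0 fell and 12 did not pass (median 0.21), beside the same share of all genes. Il1b rose by 1.04 (adjusted p = 0.0123) and Ccl4 by 0.84 (adjusted p = 0.0166). A further list held 16 genes often studied with Clec10a and Mgl2 in responses to interleukin-4, not all of them induced by it. Of these, 3 fell, 0 rose and 13 did not pass (median -0.35), beside the same share of all genes. Their differences were below 0 for 10 and above 0 for 6. The 3 that fell were Mrc1, the haemoglobin receptor gene Cd163 (-1.40, adjusted p = 0.000171) and Il4ra, the interleukin-4 receptor chain (-0.94, adjusted p = 0.0018). Mrc1 and Arg1 of this list were chosen by the study on these same samples, which makes the list no independent evidence of its direction. Arg1, the arginase gene, differed by -3.08 (adjusted p = 0.0572).

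**Figure D4:**
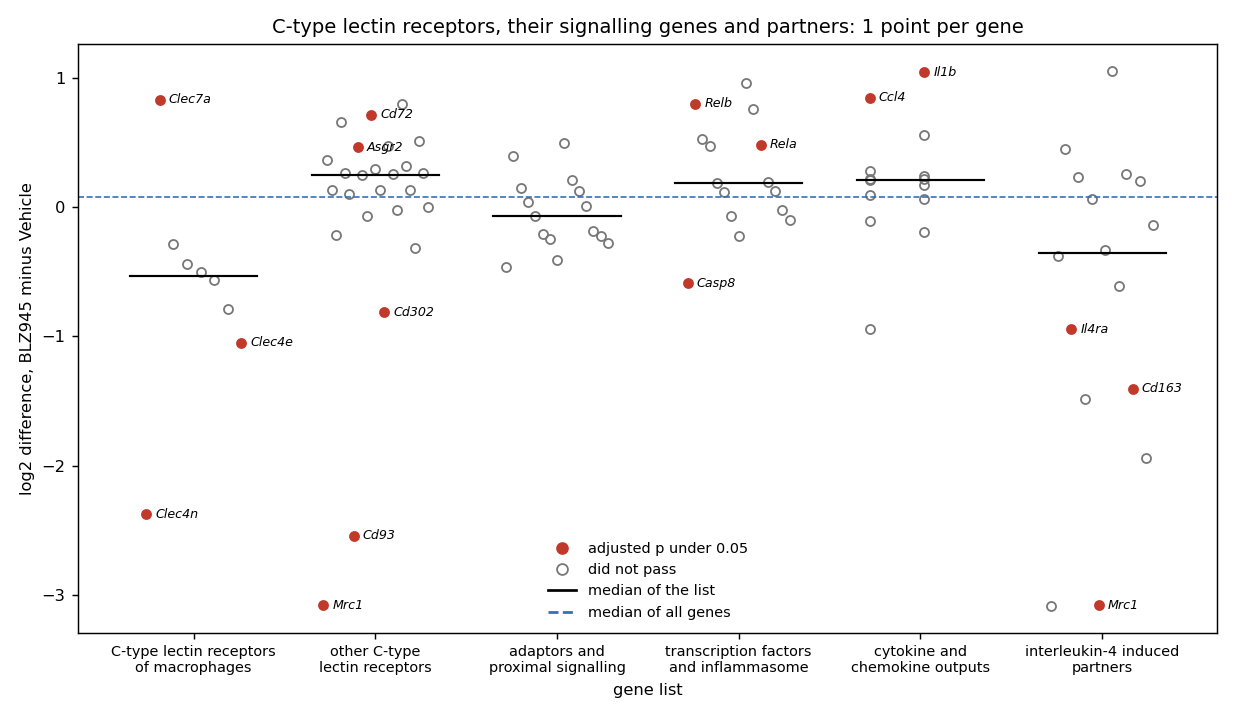
Log2 difference between BLZ945 and Vehicle (y axis), 1 point per gene, for the 8 receptors and 5 related gene lists (x axis), with filled points for genes past adjusted p under 0.05, black lines for list medians and the dashed line for the median of all genes. The 15 adaptor and signalling genes lie between -0.46 and 0.49 and none of them passed, where 7.94% of all genes did.

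Markers of other cells that can express these lectins were measured beside them, and their part in the results was not tested. In bulk RNA, fewer cells of a type and less RNA per cell cannot be told apart. Of 10 perivascular macrophage markers, 8 fell, where 5.34% of all genes fell. The log2 of the summed level of the 10 ran from 11.98 to 12.74 in Vehicle and from 10.50 to 11.42 in BLZ945. Such a sum adds unlogged levels, so the brightest genes weigh most and it is no measure of cell number. The brightest by mean level were Ms4a7 here, Fn1 for monocytes, Cd83 for dendritic cells and Csf3r for neutrophils. Of 7 measured monocyte markers 2 fell, where 5.34% of all genes fell, with sums from 12.04 to 13.48 and from 11.08 to 12.57. Of 11 dendritic cell markers 2 rose, Cd83 (1.19) and Itgax (1.06), where 2.60% of all genes rose. The sums of the list ran from 10.95 to 12.40 and from 12.24 to 13.18, while Flt3 differed by -0.20 (limma adjusted p = 0.594). Of 10 neutrophil markers, cells that the Gr1-negative sort would remove, 1 rose, Csf3r (0.80), a share near the 7.94% of all genes, and 5 differences were above 0 and 5 below. Their sums ran from 9.66 to 11.35 and from 10.52 to 11.41. Of 12 macrophage markers 1 changed, a share near the 7.94% of all genes. It was Itgam, which encodes the CD11b of the sort and fell by 1.17. The sums of this list ran from 15.79 to 16.17 and from 15.90 to 16.18. An array has no zero, so no marker can be called absent. Within BLZ945, the perivascular sum ran from 10.50 to 10.73 at 11.29 weeks and from 10.83 to 11.42 at 13.14 weeks, the dendritic cell sum from 12.61 to 13.18 and from 12.24 to 12.73, and the monocyte sum from 11.32 to 11.71 and from 11.08 to 12.57.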

How the data were processed

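RNA of 16 mice, 75 ng each, was labelled and hybridised to 1 Affymetrix 3' array per mouse, per the labels' protocols. The authors' deposited log2 values were used as given. Per the submitters' processing notes the tools were GCOS 1.4 and RMA, with no roles stated. RMA compresses differences of dim probe sets, and no scanner intensities were analysed. The number of arrays also limits the precision. Of 22690 probe sets, 20393 had 1 symbol in the platform annotation, 691 several and 1606 none; 20364 were found by gene ID in RefSeq (GRCm38.p6), which altered 0 symbols. Each of 12394 genes was tested on its probe set with the highest mean in limma 3.58.1 (R 4.3.3, lmFit and eBayes), adjusted by Benjamini-Hochberg; the fits were tested on simulated data. The highest r between 2 arrays was 0.991, so none was counted as a repeat.

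The members, the 5 related lists, the 10 marker lists and the rule for named genes were chosen with earlier results of these data known. Named were all members, up to 4 changed genes per list or else the 2 with the smallest p, receptor genes next to a member, the 3 genes most like each member, and the 2 brightest genes of each marker list, given here only where a result turns on them. Of the marker lists, natural killer cells (0 of 9 changed in limma, 5 at an unadjusted p under 0.05), T cells (0 of 9, 6 unadjusted), B cells (1 of 7 rose), microglia (3 of 9 fell, 1 rose) and glioma cells (5 of 10 fell) are counted only here. Of all genes 7.94% changed, 5.34% lower and 2.60% higher. The share of all genes at an unadjusted p under 0.05 is not given, so the unadjusted counts cannot be judged against it. Genes named outside that rule (Flt3, Itgam, Tyrobp, Fcer1g, Syk, Ptpn6, Arg1, Cd72) were chosen after their values were seen.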

Additional observations from a re-analysis of the deposited data

Results flagged for a closer look

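Clec4e in Vehicle 4, at 3.90 on its first probe set, stood apart from the other 7 Vehicle mice, the nearest of which was at 5.49 and the highest at 6.18. The gap was 0.698 of the group's range, above Dixon's 95% critical value for 8 samples. There were 22 sets of 8 values tested and 1 stood out, and chance marks about 1 in 20. On the second probe set of Clec4e, Vehicle 4 was at 4.05, the lowest of Vehicle there too, and it was also the lowest Vehicle mouse for Mgl2, at 5.39, and for Clec10a, at 6.57. Without Vehicle 4 the difference of Clec4e was -1.30 (limma adjusted p = 0.000933).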

How the results depend on the processing

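The count of 3 changed receptors became 1 with age cohort as covariate, with log2 volume as covariate in 14 mice and in mice of 11.29 weeks only, and 0 in males (1 of 8 at an unadjusted p under 0.05, against 1229 of 12394 genes). Without 1 mouse it ranged from 1 to 3, and it was 1 without Vehicle 1, 5 or 6 or BLZ945 3, 5, 7 or 8. The count of all changed genes, 984, became 215, 15, 89 and 2 under those 4 settings, 1644 with the array SD as covariate and 393 in females, and ranged from 710 to 1188 without 1 mouse. Lower genes were 67.3% of these calls, 57.3% after repeated quantile normalization and 47.3% with the array SD as covariate. With the replicate number as a block, 1 receptor passed, Clec4n, and Clec4e (adjusted p = 0.0585) and Clec7a (0.0587) did not. The numbers do not pair the mice: deviations of same-numbered mice correlated between -0.457 and 0.453, and 1 of 8 Vehicle mice matched its own number best. Over the 16 other settings the difference of Clec4n ran from -3.07 to -1.99. Clec4n passed in 15 of them, all but males only, which gave the -1.99, and Clec7a and Clec4e passed in 9 each. Clec4e also missed with array weights (0.0792) and with the array SD as covariate (0.0612), and Clec7a with the probe set of largest SD per gene (0.0527) and with every probe set tested (0.0522), where its own difference was the same. The cause of these losses was not tested. Clec10a turned to 0.13 with age cohort as covariate and at 11.29 weeks and to 0.52 with volume as covariate, Mgl2 to 0.27 in the first 2 of these and 0.16 in males, and Clec4a2 to 0.10 in males. None of these passed. Because 11.29 weeks is the only age in both groups, the age covariate and the 11.29-week fit must give the same difference, so they are not separate checks. The volume fit reaches across ranges that do not overlap between the groups. No member passed for sex, its interaction, age or volume under repeated quantile normalization or trended and robust eBayes either.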
